A study of Homo sapiens with 30 samples.

Results

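ACP3, SLC6A15 and SLITRK6 are 3 protein-coding genes on chromosomes 3, 12 and 13 that were selected on their rise between WI-38 fibroblasts labelled replicative 2112 h and replicative T0, the largest among 19912 genes with a feature of their own on the array. Each has 1 feature, a transcript cluster with a single value per array (TC03000714.hg.1 for ACP3, TC12001783.hg.1 for SLC6A15 and TC13000769.hg.1 for SLITRK6), so all 3 members were found, among 52329 features in all. WI-38 is an established cell line, diploid fibroblasts of human lung, grown here in 3% oxygen and 5% carbon dioxide and measured on 30 Affymetrix HTA 2.0 arrays from total RNA. In the replicative course the cells were exhausted by division under 21% oxygen and have 9 labelled times: T0, 144 h, then 264 h and 432 h, later 624 h and 792 h, and last 1008 h, 1368 h and 2112 h. In the RAF course, cells with a doxycycline-inducible RAF oncogene have 6 labelled times, T0, 12 h and 24 h, then 48 h, 72 h and last 96 h. The labels give 100 ng/ml doxycycline for every RAF group except T0, and 21% oxygen for every replicative group except T0. Every one of the 15 labelled groups held 2 arrays. The labels do not say which RAF gene was induced, nor whether the line was a clone, and no later RAF group lacked doxycycline, so the oncogene, the drug and time cannot be told apart. The labels give 3% oxygen for the culture of every group and do not say when the 21% oxygen began, so time and oxygen cannot be told apart in comparisons with replicative T0.

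ACP3 encodes prostatic acid phosphatase, known as a secreted enzyme of the prostate and, in a membrane-bound form, as an ectonucleotidase that turns extracellular AMP into adenosine. SLC6A15 encodes a sodium-coupled transporter of branched-chain amino acids and proline, known mainly from neurons. SLITRK6 encodes a membrane protein with leucine-rich repeats of a family that organises synapses and binds receptor tyrosine phosphatases. Senescent cells leave the division cycle for good and secrete cytokines, proteases and growth factors. Fibroblasts are not the tissue for which any of the 3 genes is best known.

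Promoters are shown because the title of the series names AP-1, a dimer of FOS and JUN family proteins that binds a short motif. Another reason is that all 3 genes rose between replicative 624 h and 792 h. The promoter sequences used held no entry for SLC6A15, so only those of ACP3 and SLITRK6 are shown. The 250 bases before the annotated start were read 5′ to 3′ on the gene's own strand from RefSeq sequence (build GRCh38.p14), which held the promoters of ACP3 (chr3:132317157-132317406, plus strand) and SLITRK6 (chr13:85799420-85799669, minus strand). Capitals mark a match to the AP-1 motif TGANTCA on either strand.
ACP3: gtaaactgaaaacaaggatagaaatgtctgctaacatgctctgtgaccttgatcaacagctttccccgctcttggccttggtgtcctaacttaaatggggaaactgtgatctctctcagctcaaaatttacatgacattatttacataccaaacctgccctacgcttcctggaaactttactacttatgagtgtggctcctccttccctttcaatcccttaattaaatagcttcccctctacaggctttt
SLITRK6: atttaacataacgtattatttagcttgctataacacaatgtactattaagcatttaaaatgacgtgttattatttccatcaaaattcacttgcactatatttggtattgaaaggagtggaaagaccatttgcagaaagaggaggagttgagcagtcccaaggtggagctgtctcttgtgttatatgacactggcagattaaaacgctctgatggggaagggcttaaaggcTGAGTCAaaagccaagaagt
SLITRK6 held 1 match, TGAGTCA, lying 14 to 20 bases before the start, and ACP3 held none. Among 35116 promoters of the same length, 6.6% held this motif. Neither promoter held the TEAD motif GGAATG (11.9% of promoters), the SP1 motif GGGCGG (42.6%), the TATA box TATAAA (10.7%) or the E-box CACGTG (6.3%), and no other motif searched overlapped the AP-1 match. A match of letters does not show that a factor binds there.

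The arrays did not divide by course. On the first principal component, which held 64.2% of the variance, 12 arrays (replicative T0 and 624 h to 2112 h) lay above 0 and the other 18 (all RAF groups and replicative 144 h to 432 h) lay below it, whereas the labels give 18 replicative and 12 RAF arrays. Genes of division and of RAF signalling also differed between labels. The mean of 10 proliferation genes was lowest in the group labelled RAF T0 (array means 5.65 and 5.80). It was highest at replicative T0 (8.58 and 8.59) and lower at replicative 432 h (6.08 and 6.14). At replicative 624 h it was high (8.18 and 8.30), at 792 h (6.08 and 6.09) and 1008 h (6.07 and 6.08) low. It was high again at replicative 2112 h (8.09 and 8.21). RAF 12 h (8.24 and 8.34) and RAF 96 h (7.88 and 7.98) were also high. The mean of 10 ERK feedback genes, which RAF signalling raises, lay between 7.57 and 7.80 on every RAF-labelled array. On replicative arrays it lay at 8.77 to 8.84 at T0 and at 7.59 to 7.82 from 144 h to 624 h. It lay between 9.07 and 9.35 on those labelled replicative 792 h to 2112 h. ARAF, the one RAF gene with a feature of its own used here, ranged over group means of 8.15 to 8.60. Whether labels were exchanged between the courses was not tested; if they were, the course named beside a value below would not be its own, so directions below are directions between labels. The mean of 9 fibroblast markers lay at 9.26 to 10.5 on the arrays. Single markers went lower, with group means of 4.6 for LUM and 7.4 for DCN at replicative 792 h.

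All 3 genes stood low on the arrays labelled replicative 144 h to 624 h and high on those labelled 792 h to 2112 h, with their peaks at 1008 h or 1368 h and lower values at 2112 h. In RNA from whole cultures, fewer cells that express a gene and less of its RNA per cell cannot be told apart. ACP3 read 4.9 and 4.9 (T0), 4.5 and 4.4 (144 h), 5.1 and 5.0 (264 h), 5.0 and 4.9 (432 h), 3.8 and 3.8 (624 h), 7.0 and 7.0 (792 h), 8.1 and 8.2 (1008 h), 8.5 and 8.6 (1368 h) and 7.0 and 7.0 (2112 h) (log2 intensity on replicates 1 and 2). The 8 arrays from 792 h onwards lay above the other 10 with no overlap, and the 624 h pair was the lowest of all. On the RAF-labelled arrays ACP3 read 4.8 and 4.6 (T0), 4.4 and 4.4 (12 h), 4.8 and 4.8 (24 h), 4.7 and 4.7 (48 h), 4.7 and 4.5 (72 h) and 4.6 and 4.7 (96 h). These 6 groups spanned 0.40 log2 units and lay inside the range of replicative T0 to 624 h.

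SLC6A15 had the widest range of the members, 6.40 log2 units between the group means of replicative 1008 h and 432 h, or 84.4-fold if the values are log2. It read 7.5 and 7.6 (T0), 5.4 and 5.5 (144 h), 5.6 and 5.6 (264 h), 4.9 and 5.0 (432 h), 5.7 and 5.7 (624 h), 11.3 and 11.3 (792 h), 11.4 and 11.3 (1008 h), 11 and 11 (1368 h) and 9.4 and 9.5 (2112 h). The arrays from 792 h onwards were again all above the others. T0 took a middle place, above every group from 144 h to 624 h. On RAF-labelled arrays SLC6A15 read 6.5 and 6.2 (T0), 5.0 and 5.1 (12 h), 5.1 and 5.0 (24 h), 5.2 and 5.6 (48 h), 5.4 and 5.3 (72 h) and 5.8 and 5.8 (96 h). T0 was the highest RAF group, clear of all others.

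SLITRK6 read 6.0 and 6.2 (T0), 4.5 and 4.6 (144 h), 4.5 and 4.7 (264 h), 4.1 and 4.1 (432 h), 3.6 and 3.6 (624 h), 7.5 and 7.5 (792 h), 8.3 and 8.3 (1008 h), 8.5 and 8.6 (1368 h) and 7.6 and 7.6 (2112 h). Like SLC6A15 it was higher at T0 than at any time from 144 h to 624 h and highest from 792 h onwards. Its RAF-labelled arrays read 5.6 and 5.1 (T0), 4.8 and 4.8 (12 h), 3.9 and 4.4 (24 h), 3.6 and 3.2 (48 h), 4.0 and 3.8 (72 h) and 4.0 and 3.8 (96 h). The RAF T0 pair lay above all later RAF arrays, and the 48 h pair held the lowest SLITRK6 value of the study.

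**Figure D1:**
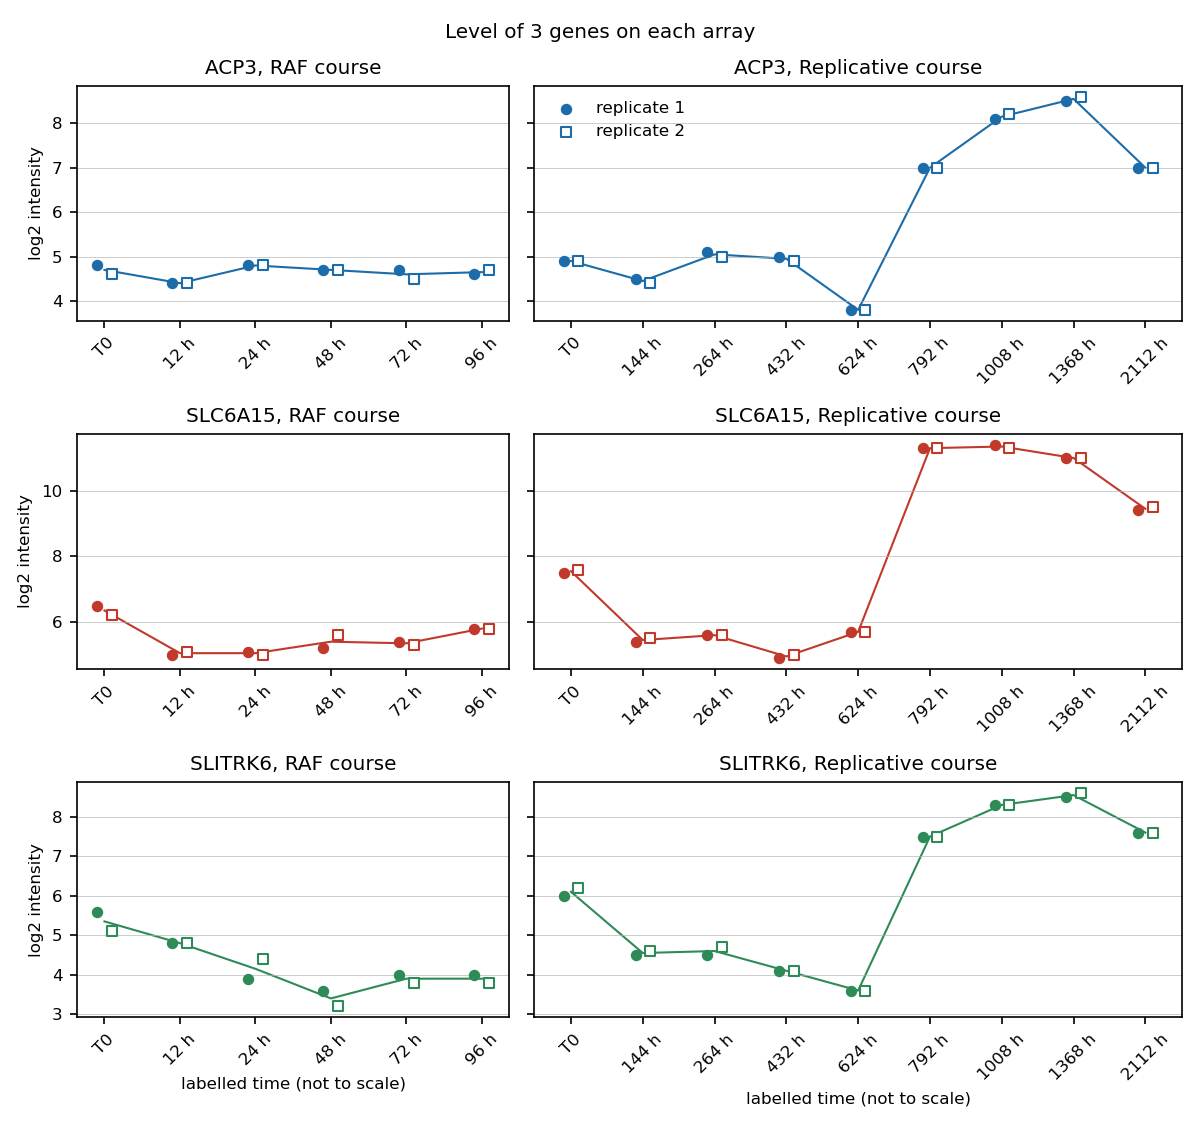
Level of ACP3, SLC6A15 and SLITRK6 (rows, log2 intensity) on each of the 30 arrays, by labelled time in the RAF course (left) and the replicative course (right). Filled circles are replicate 1, open squares replicate 2, and lines join group means; all 3 genes step up between replicative 624 h and 792 h, SLC6A15 to 11.3 on both arrays.

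Partner arrays differed by at most 0.2 for ACP3, 0.4 for SLC6A15 and 0.5 for SLITRK6, with the gaps of 0.4 and 0.5 on RAF-labelled arrays. In the order of the 15 group means, 8 of the 14 neighbouring groups overlapped or touched for ACP3. For ACP3 the order began with replicative 1368 h and 1008 h, and 2112 h and 792 h shared the next place at 7.0. Replicative 264 h, 432 h and T0 overlapped in a chain, as did the groups from RAF 48 h down to RAF 12 h, and replicative 624 h stood alone at the bottom. For SLC6A15, 5 neighbours overlapped: replicative 1008 h with 792 h at the top, replicative 144 h with RAF 48 h and RAF 48 h with RAF 72 h, and RAF 12 h, RAF 24 h and replicative 432 h in a chain at the bottom. For SLITRK6, 4 neighbours overlapped: replicative 264 h with 144 h, RAF 24 h with replicative 432 h, RAF 72 h with RAF 96 h, and replicative 624 h with RAF 48 h at the bottom.

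The values that chose the genes were those of the arrays labelled replicative 2112 h and T0, so the differences between these groups are a description with no test; 2.8% of all features passed there. They were 2.10 log2 units for ACP3 (means 7.0 and 4.90), 1.90 for SLC6A15 (9.45 and 7.55) and 1.5 for SLITRK6 (7.60 and 6.10). Just outside the choice lay TNFSF15, a cytokine of the tumour necrosis factor family, with 1.45, the cystatin CST4 with 1.45, and the inflammatory cytokine IL1B with 1.40. Of 7 features that rose by at least as much as SLITRK6, 4 had no single gene symbol and are not named. The 2112 h values were not the peak of any member: against 1368 h, ACP3 was lower by 1.55, SLC6A15 by 1.55 and SLITRK6 by 0.95, which again rests on the 2112 h arrays and was not tested.

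Between 624 h and 792 h, which the choice did not use, ACP3, SLC6A15 and SLITRK6 all rose, by far more than their partner arrays differed. SLC6A15 read 11.3 and 11.3 at 792 h, against 5.7 and 5.7 at 624 h, a difference of 5.60 (SE 0.05, adjusted p 4.05e-11, limma's test over all features). That is a 48.5-fold difference on a log2 scale and rank 5 among the rises of 52329 features. SLITRK6 was higher by 3.90 (SE 0.07, adjusted p 8.61e-10, 14.9-fold) and ACP3 by 3.20 (SE 0.06, adjusted p 1.56e-09, 9.19-fold), at ranks 39 and 76. Over all features 29.3% passed, 14.8% upwards, in this comparison, so that a call alone sets no gene apart. Both groups lie above 0 on the first principal component but apart on it, at 25.2 to 26.3 (624 h) and 79.9 to 82.9 (792 h). When any 1 of the 4 arrays was left out, the differences stayed at 5.60 for SLC6A15, 3.90 for SLITRK6 and 3.20 for ACP3. Partner arrays read the same value for each gene in both groups, so these omissions could not move the differences.

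**Figure D2:**
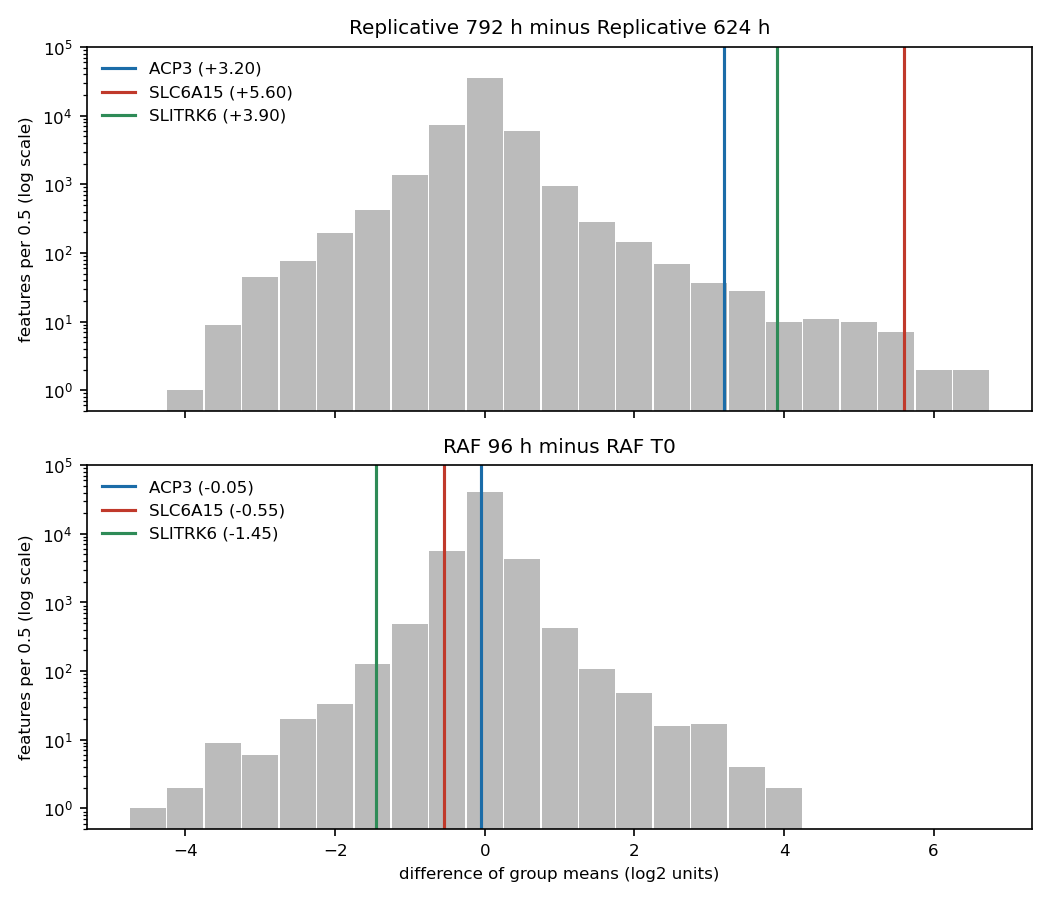
Number of features (log scale) by difference of group means in bins of 0.5 log2 units, for replicative 792 h minus 624 h (top) and RAF 96 h minus RAF T0 (bottom). Coloured lines mark ACP3, SLC6A15 and SLITRK6, which lie at 3.20, 5.60 and 3.90 in the upper panel and at -0.05, -0.55 and -1.45 in the lower one.

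From 792 h to 1368 h the members parted. ACP3 was higher at 1368 h by 1.55 (8.5 and 8.6 against 7.0 and 7.0; SE 0.06, adjusted p 1.77e-06), which was rank 14 among all rises. SLITRK6 was higher by 1.05 (8.5 and 8.6 against 7.5 and 7.5; SE 0.07, adjusted p 2.05e-05). SLC6A15 was lower by 0.30 (11 and 11 against 11.3 and 11.3; SE 0.05, adjusted p 0.00705). In this comparison 10.8% of features passed, 5.41% upwards and 5.35% downwards. The SLC6A15 call missed the threshold with the spread estimated from all 30 arrays (adjusted p 0.0592).

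At 432 h the 3 genes lay within 0.50 of their 144 h means, ACP3 above and the others below. The difference of 144 h from T0 was larger for SLC6A15 and SLITRK6 but uses the T0 arrays that chose the genes and was not tested: at 144 h, against T0, ACP3 stood lower by 0.45, SLC6A15 by 2.10 and SLITRK6 by 1.55. At 432 h, against 144 h, ACP3 was higher by 0.50 (5.0 and 4.9 against 4.5 and 4.4; SE 0.06, adjusted p 0.0015), SLC6A15 lower by 0.50 (4.9 and 5.0 against 5.4 and 5.5; SE 0.05, adjusted p 0.000677) and SLITRK6 lower by 0.45 (4.1 and 4.1 against 4.5 and 4.6; SE 0.07, adjusted p 0.00348). Here 9.57% of features passed, 5.23% upwards and 4.35% downwards, and the SLITRK6 call was lost with the spread of all 30 arrays (adjusted p 0.0715). At 624 h, against 432 h, ACP3 fell by 1.15 (SE 0.06, adjusted p 2.51e-06), SLITRK6 fell by 0.50 (SE 0.07, adjusted p 0.000438) and SLC6A15 rose by 0.75 (SE 0.05, adjusted p 1.26e-05). This pair of labels lies on either side of 0 on the first component, and 43.7% of all features passed, 20.2% upwards and 23.4% downwards. Over the whole stretch, 1368 h against 144 h, the differences were 4.10 for ACP3 (17.1-fold, adjusted p 8.87e-10), 5.55 for SLC6A15 (46.9-fold, adjusted p 4.4e-11) and 4.0 for SLITRK6 (16-fold, adjusted p 1.4e-09). These labels also lie on either side, and 55.8% of features passed, 27% upwards.

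In the RAF course no rise of the 3 genes against RAF T0 passed the threshold at any label. Every later label had less SLC6A15 than T0: it fell by 1.30 at 12 h (adjusted p 0.000439) and 24 h (adjusted p 0.00344), by 0.95 at 48 h (adjusted p 0.00669), by 1.0 at 72 h (adjusted p 0.00465) and by 0.55 at 96 h (adjusted p 0.0322), each with SE 0.14. Of all features, 19.4% passed at 12 h (9.7% higher, 9.73% lower), 5.9% at 24 h (2.64% higher, 3.26% lower) and 8.3% at 48 h (3.96% higher, 4.35% lower). At 72 h the share was 8.81% (4.34% higher, 4.47% lower), and at 96 h 15.7% (7.97% higher, 7.71% lower). The 96 h call of SLC6A15 was lost without RAF 96 h replicate 1 (adjusted p 0.123), RAF 96 h replicate 2 (0.126) or RAF T0 replicate 1 (0.183). At 96 h it stood above 12 h by 0.75 (SE 0.14, adjusted p 0.0283), where 4.92% of features passed, 2.4% upwards and 2.52% downwards. That call was lost without any 1 of the 4 arrays: adjusted p was 0.0944 without RAF 96 h replicate 1, 0.109 without RAF 96 h replicate 2, 0.133 without RAF 12 h replicate 1 and 0.103 without RAF 12 h replicate 2.

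SLITRK6 fell by 1.20 at 24 h (adjusted p 0.0226), 1.95 at 48 h (adjusted p 0.00246), 1.45 at 72 h (adjusted p 0.00733) and 1.45 at 96 h (adjusted p 0.00367) against RAF T0, each with SE 0.22. At 48 h this was rank 30 among all falls. Its difference at 12 h, -0.55, did not pass (adjusted p 0.131), nor did that of 96 h against 12 h, -0.90 (adjusted p 0.0598); with the spread of all 30 arrays both passed (adjusted p 0.0135 and 0.00129). The 24 h call was lost without RAF 24 h replicate 1 (adjusted p 0.109) or RAF T0 replicate 1 (0.113), and the 72 h call without RAF 72 h replicate 2 (0.0624). The RAF T0 arrays, on which these falls rest, also had the lowest proliferation genes, 10 of 10 of which were higher at 96 h (median difference 2.05); the part of this in the SLITRK6 and SLC6A15 differences was not tested.

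ACP3 hardly moved in the RAF course. It was lower by 0.30 at 12 h (4.4 and 4.4 against 4.8 and 4.6 at RAF T0; SE 0.08, adjusted p 0.0388), a call lost without RAF 12 h replicate 1 (adjusted p 0.132), RAF 12 h replicate 2 (0.13) or RAF T0 replicate 1 (0.191). Later it differed from RAF T0 by 0.10 (24 h), 0.00 (48 h), -0.10 (72 h) and -0.05 (96 h), none of which passed (adjusted p 0.554 to 1). At 96 h against 12 h it differed by 0.25 (adjusted p 0.13).

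**Figure D3:**
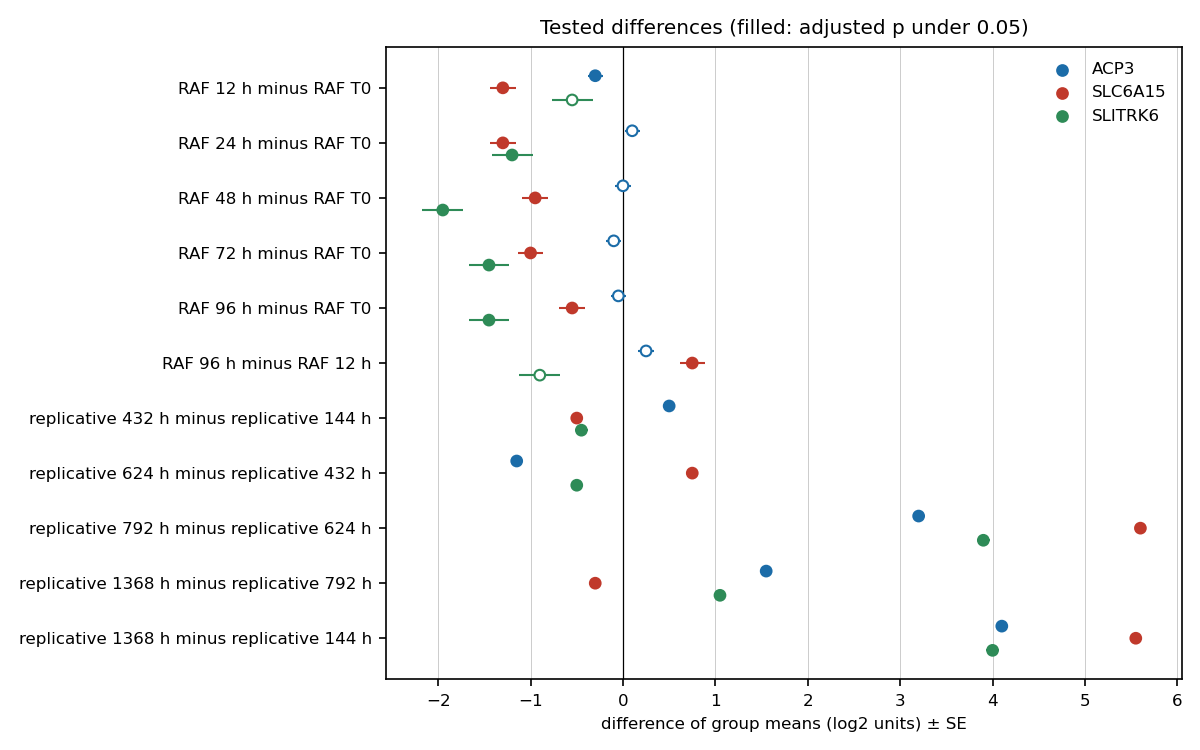
Differences of group means (log2 units, bars ± SE from limma) for ACP3, SLC6A15 and SLITRK6 in the 11 comparisons that do not use the replicative T0 or 2112 h arrays; filled points passed at an adjusted p under 0.05. RAF differences are 0 or below against RAF T0 except ACP3 at 24 h (0.10), and the differences of 792 h against 624 h reach 5.60.

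As profiles over the 15 group means, each centred on its own mean, ACP3 and SLITRK6 lay closest among the members, with a root mean square difference of 0.67 log2 units, against 0.91 for SLC6A15 with SLITRK6 and 1.18 for ACP3 with SLC6A15. Over the 6 groups above 0 on the first component the correlations of group means were 0.96 (ACP3 with SLITRK6), 0.94 (ACP3 with SLC6A15) and 0.94 (SLC6A15 with SLITRK6). Over the 9 groups below 0 they were -0.11, 0.00 and 0.44 in the same order. Of the 6 groups above 0, replicative T0 and 2112 h chose the genes. Over the 7 replicative groups from 144 h to 1368 h, which did not choose them, the correlations were 0.98, 0.93 and 0.97 in the same order. These 7 groups lie on both sides of 0.

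Other genes lay closer to a member than its fellow members did. Of the genes compared, 29 lay closer to ACP3 than SLITRK6 did, and 956 closer than SLC6A15 did. For SLC6A15 the counts were 30 against ACP3 and 13 against SLITRK6. For SLITRK6 they were 8 against ACP3 and 54 against SLC6A15. By correlation over the 15 groups, SLC6A15 and SLITRK6 took ranks 48 and 49 for ACP3, and SLITRK6 rank 226 for SLC6A15. Of 3789 other genes whose group means spanned at least 1 log2 unit, the 5 nearest to ACP3 were ANGPT2, an angiopoietin (root mean square difference 0.38), HOMER1, a scaffold of synapses (0.43), NRG1, a ligand of ERBB receptors (0.51), DCC, a netrin receptor (0.51), and ADAMTS3, a procollagen-processing protease (0.54). Nearest to SLC6A15 were the cytokines IL1A (0.52) and TNFSF15 (0.53), DCSTAMP, a membrane protein of cell fusion (0.53), IL1B (0.64) and the growth factor EREG (0.65). Nearest to SLITRK6 were the interferon IFNE (0.48), ANGPT2 (0.56), the CDK inhibitor CDKN2B (0.57), the phosphate transporter SLC20A1 (0.60) and DCSTAMP (0.60). ANGPT2 rose with ACP3 and SLITRK6, at 6.70 at 792 h and 4.05 at 624 h, and IL1A with SLC6A15, at 10.8 and 4.05. IL1A, IL1B and TNFSF15 had their highest means at 792 h, SLC6A15 at 1008 h, and ACP3, SLITRK6 and ANGPT2 at 1368 h. NRG1 has 2 features, of which the one with the higher mean was used. These profiles include replicative T0 and 2112 h, which chose the members. Over the 6 RAF groups alone, correlations with the member ranged from -0.78 (ANGPT2 with ACP3) to 0.70 (EREG with SLC6A15). Ranked by Pearson correlation instead, only ADAMTS3 for ACP3 and DCSTAMP for SLC6A15 stayed among the 5 nearest.

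**Figure D4:**
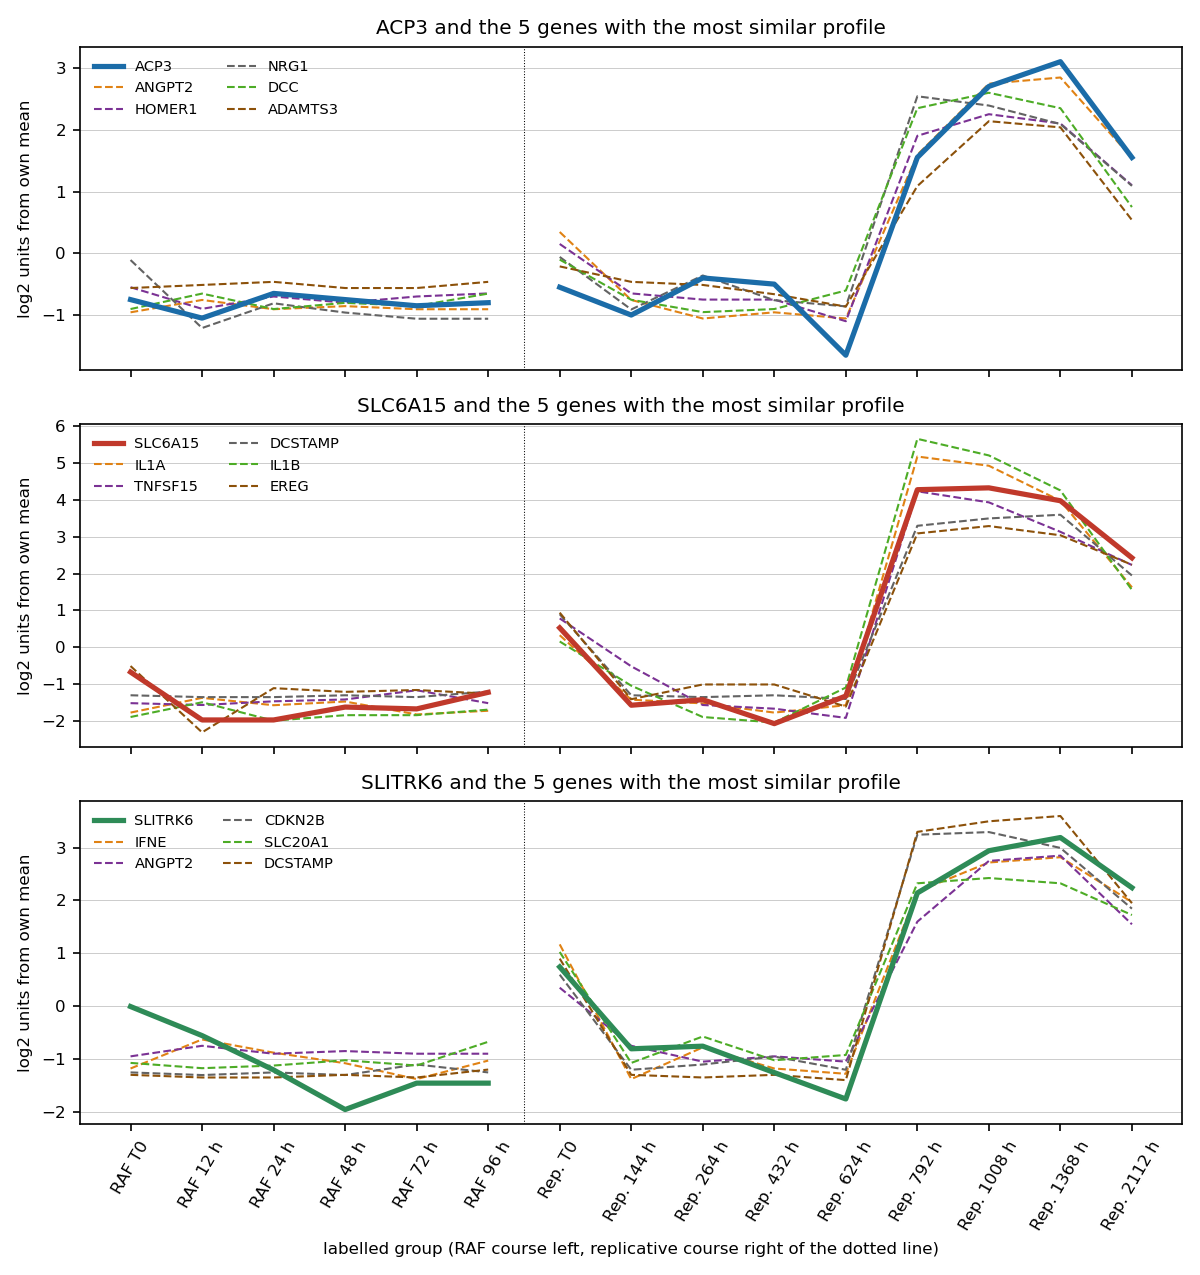
Group means of each member (thick line) and of its 5 most similar genes (dashed), as log2 units from each gene's own mean over the 15 labelled groups; RAF groups lie left of the dotted line and replicative groups right of it. The thick and dashed lines climb together at replicative 792 h, and SLITRK6 falls over the RAF labels further than the genes nearest to it.

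The 7 family and pathway lists of the 3 genes each held genes that rose and genes that fell between 624 h and 792 h, the step in which the 3 genes rose most. At 792 h, against 624 h, 4 of 7 other acid phosphatases were higher and 2 lower (median difference 0.50), where 14.8% of all features passed upwards and 14.5% downwards with a median of 0.00. Of the genes of extracellular nucleotides and adenosine 6 of 26 were higher and 6 lower (median 0.02), of other SLC6 transporters 3 of 16 and 4 (median -0.05), and of amino acid transporters of other families 6 of 27 and 11 (median -0.05). Branched-chain breakdown had 3 of 13 higher and 6 lower (median -0.20), the SLITRK-related list 3 of 22 and 4 (median 0.02), and the presynaptic and neurotrophin list 3 of 13 and 4 (median 0.00). At 1368 h against 144 h, where 27% of all features passed upwards and 28.8% downwards, 3 of 7 other acid phosphatases were higher and 2 lower (median difference 0.10, against 0.00 over all features). The inositol polyphosphate phosphatase MINPP1 was higher by 0.90 (adjusted p 1.69e-06) and the lysosomal ACP2 lower by 0.30 (adjusted p 0.0043). Of 26 genes that handle extracellular nucleotides and adenosine, 10 were higher and 10 lower (6 higher without replicative 144 h replicate 2, and 5 lower under the filter on low values). ENPP1, which splits extracellular ATP into AMP, the substrate of ACP3, was higher by 3.25 (9.95 and 6.70, SE 0.06, adjusted p 1.72e-09). ADK, which removes adenosine inside the cell, was higher by 1.45 (adjusted p 6.51e-07). DPP4, a peptidase that binds adenosine deaminase, was lower by 2.20 (adjusted p 3.17e-08), and the alkaline phosphatase ALPL by 1.20 (adjusted p 5.67e-06).

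Among 16 other SLC6 transporters 3 were higher and 5 lower at 1368 h than at 144 h (median -0.05; 3 lower without replicative 1368 h replicate 1 or without replicative 144 h replicate 2). The taurine transporter SLC6A6 was higher by 1.55 (9.45 and 7.90, SE 0.08, adjusted p 7.55e-07), and the creatine transporter SLC6A8 by 0.45 (adjusted p 0.000294). SLC6A16 and the glycine transporter SLC6A5 were lower by 0.40 and 0.30. Amino acid transporters of other families were higher in 13 and lower in 6 of 27 (median 0.15; 3 lower without replicative 144 h replicate 2). Those named by the rule were SLC7A5, a carrier of large neutral amino acids (1.60, adjusted p 8.93e-08), the cystine carrier SLC7A11 (0.95), the cationic amino acid carrier SLC7A2 (-1.15) and SLC38A6 (-1.05). Enzymes that break down branched-chain amino acids were lower in 9 and higher in 1 of 13 (median -0.30). BCKDHB, a subunit of the branched-chain keto acid dehydrogenase, was lower by 1.0 (adjusted p 2.28e-06) and the aminotransferase BCAT1 by 0.60. BCKDK, the kinase that inactivates this dehydrogenase, was the 1 that was higher, by 0.65 (adjusted p 6.37e-05).

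SLITRK and related leucine-rich adhesion genes gave 5 higher and 4 lower of 22 (median 0.05). FLRT3, a leucine-rich adhesion protein, was higher by 2.85 (7.80 and 4.95, SE 0.13, adjusted p 2.47e-07) and LRFN5 by 0.95. Of the closest relatives of SLITRK6 none passed upwards: SLITRK5 was lower by 0.55 (adjusted p 0.000639), and SLITRK1 (0.05), SLITRK2 (0.00), SLITRK3 (0.10) and SLITRK4 (0.30) did not pass. The means of SLITRK1 to SLITRK4 over the groups were low, 3.59 to 4.53, under the array median of 5.5. The presynaptic and neurotrophin list gave 3 higher and 5 lower of 13 (median -0.05). IL1RAPL1, a synaptic receptor of the interleukin-1 receptor family, was higher by 2.20 (adjusted p 6.85e-07). The neurotrophin BDNF was lower by 0.95 and PTPRF, a receptor tyrosine phosphatase, by 0.80 (adjusted p 3.5e-06).

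**Figure D5:**
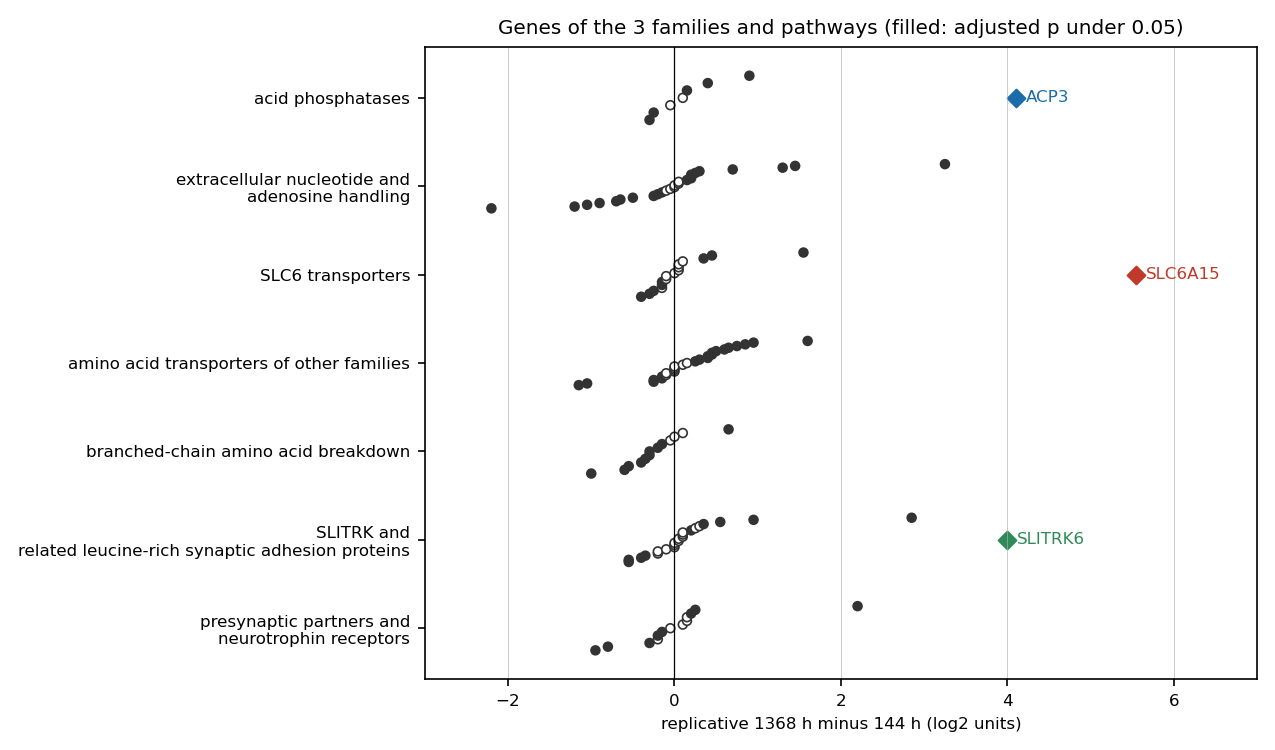
Difference of group means (log2 units) between replicative 1368 h and 144 h for each measured gene of 7 family and pathway lists (points; filled where the adjusted p was under 0.05). Coloured diamonds are ACP3 (4.10), SLC6A15 (5.55) and SLITRK6 (4.0), each to the right of every other gene of its list.

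In the RAF course, at 96 h against T0, 4 of 7 other acid phosphatases were lower and none higher, 1 of 16 SLC6 transporters was higher and 3 lower, and 5 of 22 SLITRK-related genes were lower and none higher. Without RAF 96 h replicate 1 or RAF T0 replicate 1, 2 acid phosphatases and 2 SLITRK-related genes were lower; without RAF T0 replicate 2, 3 SLITRK-related genes were. The SLC6 gene that was higher, SLC6A9, lost its call without RAF 96 h replicate 1, RAF T0 replicate 1 or RAF T0 replicate 2. Of 26 nucleotide genes 4 were higher and 5 lower, and of 27 other amino acid transporters 8 were higher and 6 lower. Branched-chain breakdown had 1 of 13 higher and 3 lower, and the presynaptic and neurotrophin list none of 13 higher and 2 lower. Of the 14 counts in the 7 lists, 7 moved by over 1.5 times in some omission. ENPP1 was higher by 1.45 (6.90 and 5.45, adjusted p 0.000287), while DPP4 was lower by 1.35 (adjusted p 0.000159) and the ectonucleotidase NT5E by 0.40 (adjusted p 0.00119). SLC6A6 was lower by 0.95 (7.75 and 8.70, adjusted p 5.27e-05). The background was 7.97% of features upwards and 7.71% downwards. At 2112 h against replicative T0, where 1.34% of all features passed upwards and 1.46% downwards, 1 of 26 nucleotide genes, 1 of 16 SLC6 transporters and 2 of 22 SLITRK-related genes were higher, with no fall in these lists or among 7 acid phosphatases, none of which rose. Of 27 other amino acid transporters 2 were higher and 5 lower, of 13 branched-chain breakdown genes none was higher and 2 were lower, and of 13 presynaptic and neurotrophin genes 1 was higher and 1 lower. ENPP1 was higher there by 0.65 (8.45 and 7.80, adjusted p 0.000185), FLRT3 by 0.80 (5.70 and 4.90, adjusted p 0.00278) and SLC6A6 by 0.40 (9.00 and 8.60, adjusted p 0.0149). The SLC6A6 call was lost when any 1 of the 4 arrays was left out, and the SLITRK-related count became 1 without replicative 2112 h replicate 1, T0 replicate 1 or T0 replicate 2.

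Markers of other cell types moved by less than the 3 genes in the step from 624 h to 792 h, and endothelial ones moved most. Of all features 14.8% passed upwards and 14.5% downwards in this step. The mean of 5 neuronal markers lay at 5.24 to 5.26 on the 792 h arrays and at 5.08 to 5.10 on the 624 h arrays. SNAP25 (0.45) and SYT1 (0.35) were higher at 792 h, while STMN2, RBFOX3 and GAD1 differed by 0.00. None of 3 prostate markers (KLK2, KLK3, TMPRSS2) passed, and their mean lay at 5.33 to 5.37 at 792 h and at 5.33 at 624 h. No background call could be made, so a low value is not shown to be absence. Of 5 endothelial markers PECAM1 (1.35), TIE1 (1.05) and KDR (0.25) were higher and VWF and CDH5 did not pass, with array means of 5.40 to 5.46 at 792 h and 4.86 to 4.90 at 624 h. Fibroblast markers were lower in 6 and higher in 1 of 9, at 9.26 at 792 h and 10.27 to 10.28 at 624 h, led by the proteoglycans LUM (-3.05) and DCN (-2.95). All 10 proliferation genes were lower (array means 6.08 to 6.09 at 792 h and 8.18 to 8.30 at 624 h), and 9 of 10 ERK feedback genes were higher (median 1.60). Of 10 AP-1 genes 4 were higher, JUNB by 2.60 and FOS by 2.00 among them, and 2 lower, FOSL1 by 1.40. The part of these shifts in the rises of ACP3, SLC6A15 and SLITRK6 was not tested.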

How the data were processed

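The values are log2 intensities as the authors deposited them, for 52329 features on 30 arrays; the log base is inferred from their range of -1.6 to 14, and no source used here gives the summarisation or normalization. Every array has a median of 5.5 and values come in steps of 0.1, so small differences are coarse. The array type, labelling and culture are per the labels. Scanner files were not used, so no background call was made, and 2 arrays per group limit the precision. Nothing says that the replicative arrays came from separate cultures, so their p-values may measure technical spread only.

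The probe table names 21055 features with exactly 1 gene symbol; a gene with several is represented by the feature with the highest mean. Groups come from the titles. limma 3.58.1 (R 4.3.3) tested differences on group means, two-sided, with Benjamini-Hochberg adjustment over all 52329 features and a threshold of 0.05. RAF comparisons used a model of 12 RAF arrays. Replicative comparisons used a model of 14 arrays (144 h to 1368 h), which leaves out the arrays that chose the genes; 2112 h against T0 used 18 arrays and served only for other genes. The fit was tested on simulated data. Members and lists were chosen with earlier results of these data known; 186 of 207 listed genes had a feature, and the ERK feedback list was added after values were seen. From each of 7 family and pathway lists, the 2 genes with the largest differences in each direction among those that passed could be named, from 4 comparisons; SLITRK1 to SLITRK4 and the marker and AP-1 genes were named after their values were seen. Similar genes are the 5 with the smallest root mean square difference of centred profiles. Alternatives were limma-trend, quantile normalization, a filter on features above the median, a model of all 30 arrays, the replicate number as a block, leaving out each array, and, added after seeing the data, models without RAF T0 or replicative 624 h. Replicate numbers do not pair the arrays: the deviations of same-numbered arrays correlated between groups at -0.28 to 0.36 (median 0.02 over 105 pairs of groups).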

Additional observations from a re-analysis of the deposited data

Results flagged for a closer look

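SLC6A15 and SLITRK6 moved in opposite directions from the first to the last label of the 2 courses. Between RAF 96 h and RAF T0 the difference was -0.55 for SLC6A15 and -1.45 for SLITRK6, with both 96 h arrays below both T0 arrays. Between replicative 2112 h and replicative T0 it was 1.90 for SLC6A15 and 1.5 for SLITRK6, with both 2112 h arrays above both T0 arrays. The difference between the courses was not tested, because the replicative values chose the genes.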

How the results depend on the processing

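Of 285 recomputed differences of ACP3, SLC6A15 and SLITRK6, 265 kept their direction and side of the threshold, including all from limma-trend, quantile normalization and the models without RAF T0 or replicative 624 h; quantile normalization moved no group level by more than 0.07. In the RAF arrays the filter gave no value for the 3 genes. With the spread of all 30 arrays, SLITRK6 passed at RAF 12 h against T0 (-0.55) and at RAF 96 h against 12 h (-0.90), and so did ACP3 at RAF 96 h against 12 h (0.25), while SLITRK6 at replicative 432 h against 144 h (-0.45) and SLC6A15 at 1368 h against 792 h (-0.30) did not. With the replicate block, SLC6A15 at RAF 96 h against T0 (-0.55) had an adjusted p of 0.0532; the block changed no other call of a member and moved counts by factors of 0.74 to 1.01. The cause of these changes was not tested.

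Leaving out 1 array gave ACP3 differences of -0.40 to -0.20 at RAF 12 h and of -0.15 to 0.05 at RAF 96 h, where it reversed (0.05) without RAF T0 replicate 1; SLITRK6 differences of -0.80 to -0.30 at RAF 12 h, which passed in none of them, -1.45 to -0.95 at RAF 24 h and -1.70 to -1.20 at 72 h; and SLC6A15 differences of -0.70 to -0.40 at RAF 96 h against T0 and 0.70 to 0.80 against 12 h. Counts of features that passed lay, over these omissions, at 1195 to 1378 (of 3089) for RAF 24 h, 2236 to 3313 (of 4345) for 48 h, 1603 to 2565 (of 4608) for 72 h, 4989 to 6043 (of 8209) for 96 h, 237 to 930 (of 2573) for RAF 96 h against 12 h, 2113 to 2917 (of 5010) for replicative 432 h against 144 h, 3025 to 3824 (of 5633) for 1368 h against 792 h and 377 to 523 (of 1464) for 2112 h against T0. The count moved by over 1.5 times without any 1 of the 4 arrays, except without RAF 48 h replicate 1, RAF 96 h replicates 1 and 2 against T0, and replicative 792 h replicate 1. With all 30 arrays the counts were 4829 for RAF 24 h and 4445 for RAF 96 h against 12 h. Under the filter, which tests fewer features, they were 13746 (of 22845) for replicative 624 h against 432 h and 16902 (of 29209) for 1368 h against 144 h. Of the listed genes picked by rule, calls were lost in some omission for 5 of 24 at RAF 12 h, 6 of 20 at RAF 96 h, 0 of 27 at replicative 1368 h against 144 h and 9 of 12 at 2112 h against T0. By Pearson correlation in place of the root mean square difference, 1 of the 5 genes nearest to ACP3 stayed, 1 of those nearest to SLC6A15 and 0 of those nearest to SLITRK6.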
